A study of Homo sapiens with 3 samples.

Results

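The proteins of the small subunit of the mitochondrial ribosome were followed through 33 genes. They were chosen by name from a table of 63241 genes: every gene named MRPS with a number and at most 1 of the letters A, B or C, together with DAP3, PTCD3, CHCHD1 and AURKAIP1, which encode subunits under other names. Pseudogenes were left out. All 33 were detected in every library, and all passed the filter on low counts, which left 19820 genes for the tests. The genes lie on 18 chromosomes.

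Ribosome footprints, the mRNA fragments that a ribosome protects from nuclease, were counted in HEK293T cells. This line stems from human embryonic kidney and makes the large T antigen of SV40, which binds and inhibits p53. Cells expressing wild-type (WT), G245S or R273H p53 were compared, and each of the 3 groups held 3 culture dishes (9 libraries). The study's methods describe lines made by lentiviral transduction and puromycin selection from one HEK293T stock, without naming single clones. The labels call the cells both stable and transient, and those of the mutants also name a wild-type construct, so groups were taken from the titles. Every dish, WT included, received cycloheximide for 2 min before lysis, to hold ribosomes on their mRNA. Dishes of a group shared a reverse transcription pool, so a difference between groups and a difference between pools cannot be told apart, and the tests measure a difference against the spread between dishes.

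The mitochondrial ribosome makes the proteins that mitochondrial DNA encodes, all of them parts of the oxidative phosphorylation complexes. Its small subunit binds the mRNA and decodes it, while the large subunit joins the amino acids. Its rRNA is made in the organelle, but every one of its proteins is encoded in the nucleus, made on cytosolic ribosomes and imported, so the footprints below are those of cytosolic ribosomes. Of the 33 genes, 16 encode proteins of a bacterial small subunit family and 14 encode proteins, or branches of a family, found only in mitochondria. The other 3 carry the MRPS name but act elsewhere: MRPS18A and MRPS30 are proteins of the large subunit, and MRPS36 (also KGD4) belongs to the 2-oxoglutarate dehydrogenase complex.

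Promoter sequence was examined because many members were called in the comparisons given below. RefSeq (GRCh38.p14) held a window from 250 bases before to 50 bases after the start of 32 of the 33 genes. The letters AAGATGGC, a core that YY1 binds, were found on either strand in 9 of 32 windows (28.1%), against 3.52% of 27305 genes. In 8 of these 9 the ATG inside the match was the annotated start codon. The 27305 genes were not limited to protein-coding genes, so the shares are of unlike sets. Of 12 members called higher in each mutant 5 held the match, as did 0 of 4 called lower in each. The other matches lay in MRPS7, MRPS12, MRPS18B and MRPS24, which were called in neither mutant. The windows of the 5 called higher are shown 5′ to 3′ with the match in capitals. They are read from chr5:72320208-72320233 (minus strand) for MRPS27, chr6:42217836-42217861 (minus strand) for MRPS10, chr6:43687766-43687791 (minus strand) for MRPS18A, chr5:44808951-44808976 (plus strand) for MRPS30 and chr2:86106236-86106261 (plus strand) for PTCD3.
MRPS27: gtacgctccAAGATGGCtgcctccat
MRPS10: gggaccggcAAGATGGCggcgcggac
MRPS18A: aggtttttgAAGATGGCggccctcaa
MRPS30: tcgcgggcaAAGATGGCggcggccag
PTCD3: gagaaatcaAAGATGGCggttgtatc

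The letters CCGGAAG, a core of the ETS family of factors, were found on either strand in 13 of 32 windows (40.6%), against 12.2% of all genes. This match stood in 4 of 12 members called higher in each mutant and in 2 of 4 called lower in each. Windows of a pair of members called higher (MRPS18C and MRPS22) and a pair called lower (MRPS21 and MRPS33) in each mutant are shown to let the surroundings of the match be compared. They are read from chr4:83455827-83455851 (plus strand) for MRPS18C, chr3:139343990-139344014 (plus strand) for MRPS22, chr1:150293859-150293883 (plus strand) for MRPS21 and chr7:141014937-141014961 (minus strand) for MRPS33. The capitals mark the match, which reads CTTCCGG where it lies on the opposite strand of the gene.
MRPS18C: gctcgcggaCCGGAAGcacgcataa
MRPS22: tcccaaccaCTTCCGGcgcaagtgg
MRPS21: gtgagaaccCTTCCGGtgggctagg
MRPS33: agggcgggcCTTCCGGgacgagggc

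MRPS10, MRPS12 and MRPS18A held both matches, at separate places in the window. The letters GGGCGG (GC box) stood in 71.9% of the members' windows and 48.3% of all, CCAAT in 40.6% and 39.7%, and the NRF1 motif in 6.25% and 6.98%. By direction, GGGCGG stood in 9 of 12 members called higher in each mutant and 1 of 4 called lower in each. These counts were 7 and 2 for CCAAT, and 1 and 1 for the NRF1 motif. The motifs were chosen with the data known, and a match is a description of letters, not of a factor bound there.

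The libraries held 18.7 to 24.6 M counts, and those of R273H (23.3 to 24.6 M) were deeper than all others. MDM2 and CDKN1A, which WT p53 activates, were lower in each mutant, with log2 fold changes of -3.48 and -1.92 in G245S and -3.49 and -2.14 in R273H. VIM (883 to 983 CPM, counts scaled to a common library total) and NEFM (255 to 285 CPM) were abundant in every library. The label calls the line epithelial, and 4 of 5 epithelial markers were above 1 CPM on average: KRT18 (107 to 122 CPM), KRT8 (32.6 to 44.7 CPM), CDH1 (5.20 to 8.63 CPM) and EPCAM (3.30 to 5.33 CPM), while KRT19 was at most 0.0505 CPM. Defining markers of blood (PTPRC), endothelium (VWF) and liver (ALB) were at most 0.160, 0.139 and 0.107 CPM. The highest of the markers listed for blood and liver were CD79A (at most 0.779 CPM) and APOA1 (at most 0.559 CPM). Of 5 fibroblast markers 3 were above 1 CPM on average, and COL1A2 was at most 0.0534 CPM. The sum of all 5 was 50.1 to 53.6 CPM for WT, 43.2 to 49.1 CPM for G245S and 51.4 to 53.1 CPM for R273H, and its part in the results was not tested.

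The first comparison asked how ribosome occupancy of these mRNAs differed between G245S and WT p53. Most of the genes that changed were higher in G245S, by small amounts. In G245S, 18 of 33 genes (54.5%) were called at an adjusted p under 0.05 in edgeR's quasi-likelihood test, 14 higher and 4 lower, and 15 were not. Over all genes 24.7% were called, 12.6% higher and 12.1% lower. Calls were more frequent among abundant genes: of the 3423 genes within the mean abundance range of the members (49.4 to 205 CPM), 44.1% were called. The log2 fold changes ran from -0.20 to 0.26 (1.19-fold), with a median of 0.044 over the 33 genes and -0.00069 over all genes tested.

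The second comparison set R273H against the same WT dishes. Here 20 of 33 genes (60.6%) were called, 14 higher and 6 lower, against 28.8% of all genes (14.2% higher and 14.6% lower) and 49.8% of those of like abundance. The log2 fold changes ran from -0.21 to 0.31 (1.24-fold), with a median of 0.061, against -0.0024 over all genes. Both comparisons use the same WT libraries and are therefore not independent of each other. CPM values of the 3 mutant and 3 WT dishes did not overlap for 19 genes (57.6%) in G245S and 21 (63.6%) in R273H, against 37.5% and 41.1% of all genes. The share among genes of like abundance was not computed.

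**Figure D1:**
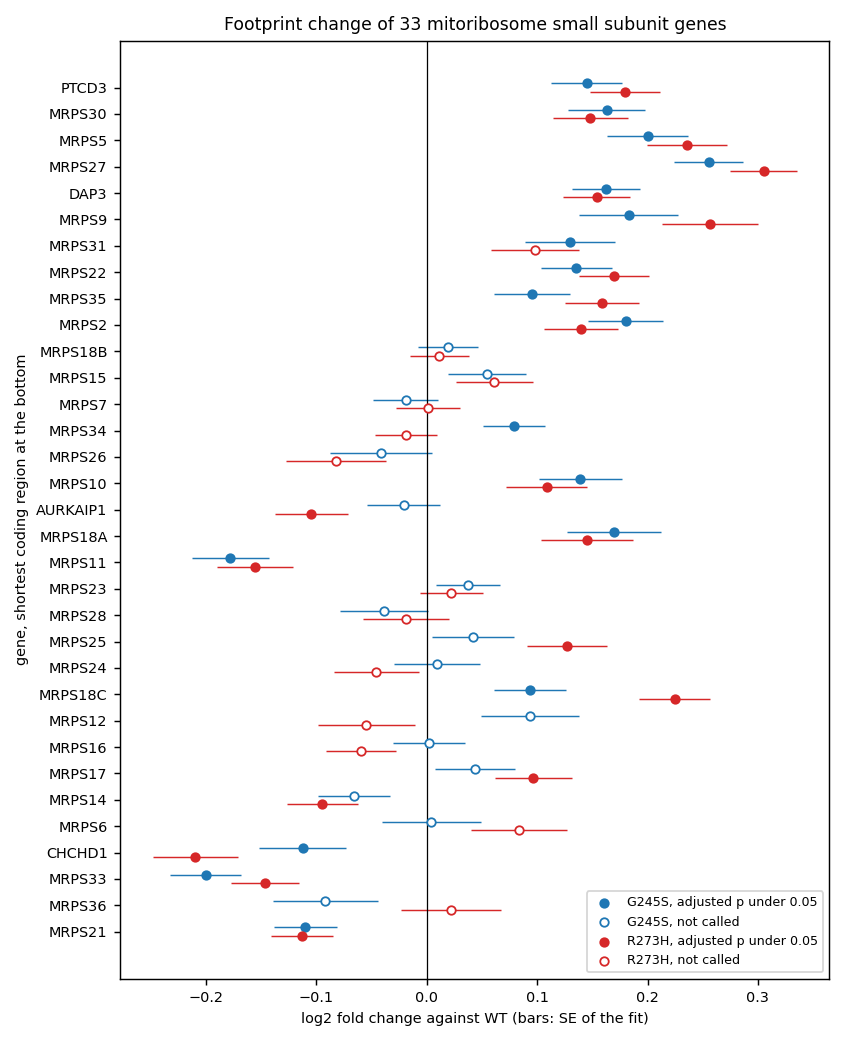
Log2 fold change in footprint counts against WT (x axis) for each of the 33 genes (y axis, ordered by coding length with the shortest at the bottom), with G245S in blue and R273H in red; bars are the SE of the fit and filled points have an adjusted p under 0.05. Values run from -0.21 to 0.31, and the filled points to the left of 0 belong to genes in the lower part of the plot.

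MRPS27, which encodes a pentatricopeptide repeat protein found only in mitochondria, had the largest increase of the 33 genes in each mutant. The gene (ENSG00000113048, chromosome 5, positions 72214953 to 72321717, minus strand, 11 exons, GENCODE v44 on GRCh38) gave 115, 116 and 112 CPM in the WT dishes, 135, 133 and 136 CPM in G245S and 139, 140.1 and 144 CPM in R273H. Every mutant dish was above every WT dish. The means were 114 ± 1.80 CPM in WT (SD, n = 3 dishes), 135 ± 1.65 CPM in G245S and 141 ± 2.50 CPM in R273H. Against WT this was a log2 fold change of 0.26 for G245S (SE 0.0312, adjusted p 3.6e-07) and of 0.31 for R273H (SE 0.0305, adjusted p 8.4e-09).

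MRPS5, MRPS9 and MRPS2 encode proteins of bacterial small subunit families. MRPS5 (ENSG00000144029, chromosome 2, positions 95085369 to 95122006, minus strand) gave 89.6, 87.4 and 88.7 CPM in WT, 98.3, 98.5 and 104 CPM in G245S and 104, 100.5 and 108 CPM in R273H. The WT dishes lay within a narrow band below all mutant dishes. On the log2 scale G245S was 0.20 above WT (SE 0.0371, adjusted p 0.000169) and R273H was 0.24 above it (SE 0.0362, adjusted p 1.1e-05). Most of its coding region also lies in ENSG00000289685, an annotated gene on the same strand, so the division of reads between them is uncertain.

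MRPS9 (ENSG00000135972, chromosome 2, positions 105038069 to 105099960, plus strand) gave 60.8, 61.0 and 65.6 CPM in WT, 69.1, 67.3 and 73.1 CPM in G245S and 71.8, 74.7 and 77.0 CPM in R273H. Dish 3 was the highest of its group in each of the 3 groups, and the mutant dishes stayed above the WT dishes. The increase in log2 was 0.18 with G245S (SE 0.0449, adjusted p 0.00312) and 0.26 with R273H (SE 0.0435, adjusted p 4.7e-05).

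MRPS2 (ENSG00000122140, chromosome 9, positions 135499984 to 135504673, plus strand) gave 131, 129 and 119.7 CPM in WT, 147, 139.7 and 139 CPM in G245S and 138, 141 and 139.9 CPM in R273H. The spread between dishes was wider here, with a WT mean of 127 ± 6.18 CPM (SD, n = 3 dishes), but the groups did not overlap with WT. G245S exceeded WT by 0.18 in log2 (SE 0.0340, adjusted p 0.000209), and R273H by 0.14 (SE 0.0335, adjusted p 0.00209).

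MRPS18C encodes the family member that takes the place of the bacterial protein in the small subunit, while its relatives MRPS18A and MRPS18B have other positions. The gene (ENSG00000163319, chromosome 4, positions 83455932 to 83469735, plus strand) gave 131, 134 and 139 CPM in WT, 138, 142 and 144 CPM in G245S and 154, 157 and 159.7 CPM in R273H. The R273H dishes stood above all others, while the highest WT dish was above the lowest G245S dish. R273H exceeded WT by 0.22 in log2 (SE 0.0319, adjusted p 3.5e-06), and G245S by 0.093 (SE 0.0328, adjusted p 0.0362). The G245S call was lost without WT dish 1 or 2 or without G245S dish 2 or 3 (adjusted p 0.0964 to 0.177). Part of its coding region overlaps ABRAXAS1 on the other strand.

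Lower levels were found for MRPS33, MRPS11, CHCHD1 and MRPS21, all with short coding regions (261 to 582 nt). MRPS33, a protein found only in mitochondria (ENSG00000090263, chromosome 7, positions 141002610 to 141015228, minus strand), gave 131, 134 and 134 CPM in WT, 112, 116 and 114 CPM in G245S and 117, 121 and 122 CPM in R273H. All mutant dishes were below all WT dishes. Log2 fold changes were -0.20 for G245S (SE 0.0319, adjusted p 2.3e-05) and -0.15 for R273H (SE 0.0312, adjusted p 0.000645).

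MRPS11, of a bacterial family (ENSG00000181991, chromosome 15, positions 88467453 to 88480776, plus strand), gave 100.4, 102 and 102 CPM in WT, 91.2, 89.8 and 85.0 CPM in G245S and 91.1, 91.0 and 91.3 CPM in R273H. The R273H dishes had an SD of 0.175 CPM (n = 3 dishes), and all mutant dishes were below WT. Against WT, the log2 fold change of G245S was -0.18 (SE 0.0352, adjusted p 0.000359), and that of R273H was -0.16 (SE 0.0343, adjusted p 0.000971).

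CHCHD1, a small protein with a coiled-coil-helix fold (ENSG00000172586, chromosome 10, positions 73782047 to 73783652, plus strand), gave 75.2, 72.6 and 78.3 CPM in WT, 69.3, 68.3 and 68.7 CPM in G245S and 65.4, 64.3 and 65.5 CPM in R273H. The 3 groups did not overlap. R273H stood at -0.21 in log2 against WT (SE 0.0387, adjusted p 0.000134), the largest decrease there, and G245S one of -0.11 (SE 0.0394, adjusted p 0.0360). The G245S call was lost in 6 of 9 fits with 1 dish left out (WT dish 1 or 3, any G245S dish or R273H dish 1, adjusted p 0.0501 to 0.216).

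MRPS21, of a bacterial family and the shortest of the genes (ENSG00000266472, chromosome 1, positions 150293861 to 150308979, plus strand), gave 214, 211 and 214 CPM in WT, 195, 193 and 196 CPM in G245S and 196, 193 and 202 CPM in R273H. The mutant dishes were again below every WT dish. Each mutant had a log2 fold change of -0.11, with SE 0.0282 and adjusted p 0.00447 for G245S and SE 0.0277 and adjusted p 0.00260 for R273H. Its sign turned once a trend with length and GC content was removed, as described below.

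**Figure D2:**
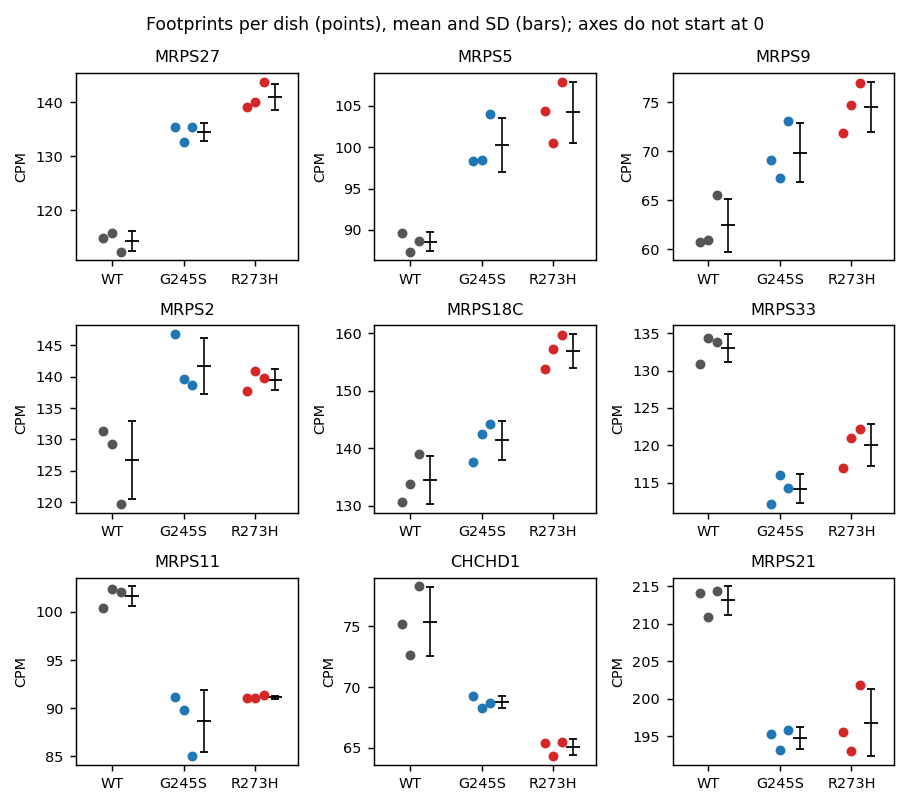
CPM of the 9 genes described in full (y axis, which does not start at 0) in each of the 3 dishes of WT, G245S and R273H (x axis), with the mean and SD as bars. MRPS27 lies at 112 to 116 CPM in WT and 139 to 144 CPM in R273H, and MRPS33 at 131 to 134 CPM in WT and 112 to 116 CPM in G245S.

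Among the 16 genes of bacterial families, G245S had 5 higher and 2 lower, R273H 6 higher and 3 lower. Of all genes 24.7% and 28.8% were called, and of those of like abundance 44.1% and 49.8%. Beside those described, MRPS10 was higher by 0.14 in log2 for G245S (adjusted p 0.00655) and by 0.11 for R273H (adjusted p 0.0259). MRPS17 was higher in R273H (0.097, adjusted p 0.0389) and not called in G245S (0.044, adjusted p 0.418). MRPS14 was lower in R273H (-0.095, adjusted p 0.0270) and not called in G245S (-0.066, adjusted p 0.149). The calls of MRPS10, MRPS17 and MRPS14 in R273H each depended on single dishes. The MRPS10 call was lost without WT dish 1 or 2 or without R273H dish 1 or 3 (adjusted p 0.0599 to 0.122), and the MRPS14 call without WT dish 2 or 3 or without R273H dish 2 or 3 (adjusted p 0.0590 to 0.113). The MRPS17 call was lost without WT dish 1 or 2, G245S dish 2, or R273H dish 2 or 3 (adjusted p 0.0508 to 0.207), and its whole coding region lies in a second annotated gene on the same strand. The remaining family members, MRPS6, MRPS7, MRPS12, MRPS15, MRPS16, MRPS24 and MRPS28, were called in neither comparison. MRPS12, whose protein lies at the decoding centre, gave 0.093 for G245S (adjusted p 0.127) and -0.055 for R273H (adjusted p 0.383), and MRPS7 gave -0.019 and 0.0012.

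Of the 14 mitochondria-specific genes, G245S had 7 higher and 2 lower, R273H 6 higher and 3 lower. Again, 24.7% and 28.8% of all genes were called, and 44.1% and 49.8% of those of like abundance. DAP3, which encodes a GTP-binding subunit first described in cell death, was higher by 0.16 in log2 for G245S (adjusted p 0.000206) and by 0.15 for R273H (adjusted p 0.000271), and its WT level was 176 ± 6.07 CPM (SD, n = 3 dishes). PTCD3, a pentatricopeptide repeat protein with the longest coding region of the genes, was higher by 0.15 for G245S (adjusted p 0.00118) and by 0.18 for R273H (adjusted p 6.99e-05). MRPS22, mutated in an inherited disorder of oxidative phosphorylation, was higher by 0.14 (adjusted p 0.00233) and 0.17 (adjusted p 0.000145).

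MRPS35 was higher by 0.16 in R273H (adjusted p 0.000569) and by 0.095 in G245S (adjusted p 0.0402). Its G245S call was lost without WT dish 1 or 2, G245S dish 2 or 3, or R273H dish 1 or 2 (adjusted p 0.0525 to 0.226). MRPS31 and MRPS34 were called in G245S, with increases of 0.13 (adjusted p 0.0198) and 0.079 (adjusted p 0.0413), and gave 0.098 (adjusted p 0.0668) and -0.019 (adjusted p 0.662) in R273H. The MRPS31 call was lost without WT dish 1 or 2 or G245S dish 3 (adjusted p 0.0514 to 0.101), and the MRPS34 call without WT dish 1 or 3, any G245S dish, or R273H dish 1 or 2 (adjusted p 0.0528 to 0.117). MRPS25 was higher in R273H (0.13, adjusted p 0.00814) and gave 0.042 in G245S (adjusted p 0.454). Its adjusted p in R273H reached 0.0540 in the alternative settings, the minimum fold change aside. Of its 519 coding bases, 385 also lie in ENSG00000289750 on the same strand. AURKAIP1 was lower in R273H (-0.10, adjusted p 0.0171), a call lost without WT dish 1 or 2 or R273H dish 3 (adjusted p 0.0653 to 0.121), and gave -0.021 in G245S. MRPS18B, MRPS23 and MRPS26 were called in neither comparison, and MRPS18B, at 204 ± 0.607 CPM in WT, gave 0.019 and 0.011.

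Of the 3 genes whose proteins act elsewhere, both large subunit proteins were higher. MRPS30 rose by 0.16 for G245S (adjusted p 0.000850) and 0.15 for R273H (adjusted p 0.00150), and MRPS18A by 0.17 (adjusted p 0.00358) and 0.15 (adjusted p 0.00877), the last call being lost without WT dish 3 or R273H dish 3 (adjusted p 0.0509 and 0.0531). MRPS36 gave -0.092 (adjusted p 0.165) and 0.022 (adjusted p 0.767). Its value is uncertain, since 5 pseudogenes named after it held 19.2% as many counts as the gene. The same share was 8.21% for MRPS21 and 4.72% for MRPS31, and at most 1.08% for the others. Coding bases of 13 members lie in another annotated gene, in 6 cases on the same strand, and whether the authors counted by strand is not stated.

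The direction of change went with the length of the coding region. The genes had a median coding length of 597 nt, against 1401 nt in 10853 other protein-coding genes. Over the 33 genes, Spearman's correlation of log2 fold change with coding length reached 0.76 for G245S and 0.68 for R273H, against 0.15 and 0.21 over the other genes. These are correlations across genes that share the same libraries. The rank correlation with the GC content of the coding region was -0.23 and -0.52. Of the 12 genes above 738 nt, the upper bound of the shortest of 5 equal bins of the other genes, 10 were called higher in G245S and 9 in R273H, and all 12 log2 fold changes were positive in each. Of the 21 genes up to 738 nt, G245S had 4 higher and 4 lower, R273H 5 higher and 6 lower. The medians of the 12 longer genes were 0.15 and 0.16, and those of the 21 shorter genes 0.0021 and -0.019, against -0.052 and -0.068 for the other genes of that length. In the longer bins, the medians of the other genes were -0.0080 to 0.018 for G245S and -0.020 to 0.035 for R273H. Among all genes tested, increases were called for 12.6% (G245S) and 14.2% (R273H). Such shares were not computed for other genes of like length.

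Whole libraries differed in the same property. Over 10886 protein-coding genes, the rank correlation between coding length and the deviation of a library from the mean of all was -0.18 to -0.14 in WT, -0.011 to 0.12 in G245S and 0.14 to 0.19 in R273H, with no overlap between groups. With GC content it was -0.18 to 0.26 in WT, -0.18 to 0.34 in G245S and -0.42 to -0.14 in R273H, and the groups overlapped. With a smooth trend in length and GC of the coding region taken out of each library, G245S had 21 genes called higher and 2 lower, and R273H had 19 called, all of them higher. The medians were then 0.12 and 0.091. All genes shifted the same way, to 3444 higher and 1981 lower in G245S (median 0.026) and 3247 higher and 2588 lower in R273H (median 0.013). The 50 large subunit genes moved alike, to 30 higher and 2 lower (median 0.105) and 25 higher and 4 lower (median 0.084). Over the 33 genes the rank correlation with coding length was 0.62 and 0.49. Of the 12 longer genes, 12 were then called higher in G245S and 11 in R273H. The decreases of the short genes shrank. MRPS33 kept -0.087 for G245S (adjusted p 0.0236) and -0.070 for R273H (adjusted p 0.0573), and MRPS11 kept -0.12 (adjusted p 0.00846) and -0.069 (adjusted p 0.106). CHCHD1 gave -0.0080 (adjusted p 0.909) and -0.096 (adjusted p 0.0511). The call of AURKAIP1 in R273H was lost (-0.0065, adjusted p 0.885). Among genes called with or without the trend, signs turned for MRPS21, to 0.019 (adjusted p 0.664) and 0.0090 (adjusted p 0.840). In R273H they also turned for MRPS14 (0.0017, adjusted p 0.976) and MRPS34 (0.076, adjusted p 0.0490). Some values called in neither fit changed sign too, such as MRPS14 in G245S (-0.066 to 0.038) and MRPS12 in R273H (-0.055 to 0.069). With a block by dish number added, R273H had 20 higher and 2 lower, the latter being CHCHD1 and MRPS33. A trend in length or GC content that arose in a pool and one that arose in the cells cannot be told apart here.

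**Figure D3:**
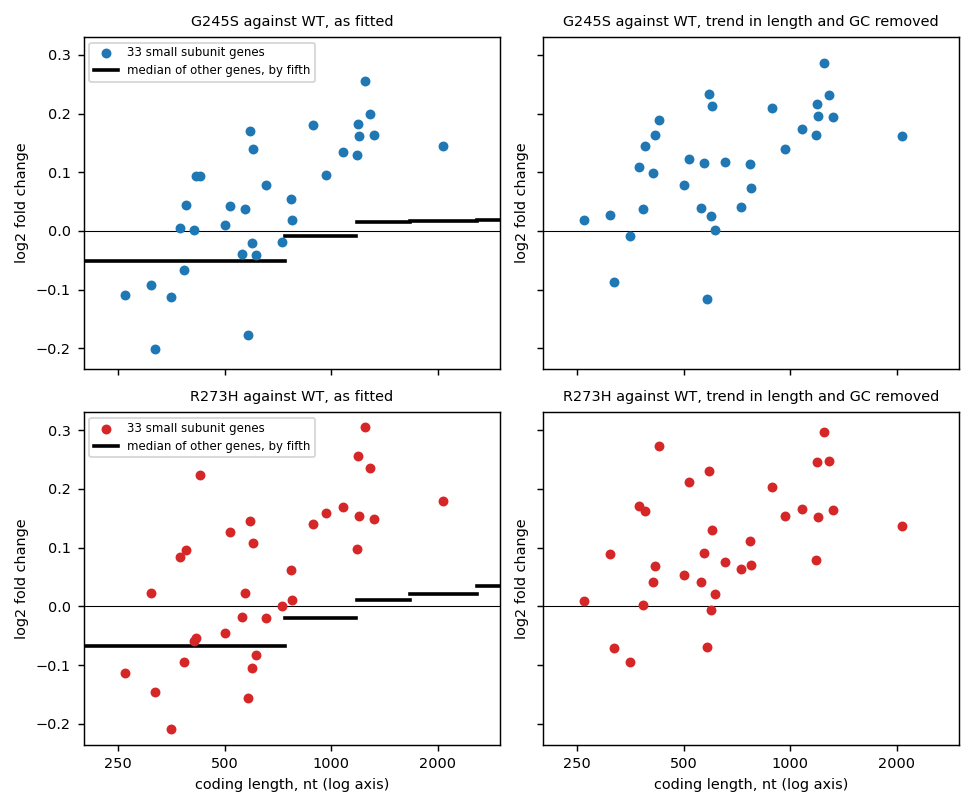
Log2 fold change against WT (y axis) over coding length in nt (x axis, log scale) for the 33 genes in G245S (upper panels, blue) and R273H (lower panels, red), as fitted (left, with the medians of other genes in 5 equal bins of coding length as black lines) and with the trend in length and GC content removed (right). Points rise with coding length in all 4 panels, with rank correlations of 0.76 and 0.68 as fitted and 0.62 and 0.49 with the trend removed.

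The third comparison set the mutants against each other, and the WT dishes cancel in it. MRPS18C was called, as 1 of 33 genes (3.03%), against 2.59% of all genes (1.86% higher and 0.732% lower in G245S) and 4.79% of those of like abundance. It was lower in G245S than in R273H by 0.13 on the log2 scale (log2 difference -0.13, SE 0.0316, adjusted p 0.0210), with means of 141 ± 3.39 CPM and 157 ± 2.99 CPM (SD, n = 3 dishes each) and no overlap between dishes. The call was lost without G245S dish 1 or 2 or R273H dish 2 or 3 (adjusted p 0.0806 to 0.151) and with the trend in length and GC content removed (-0.085, adjusted p 0.0849). MRPS12 had the largest difference, 0.15 higher in G245S (SE 0.0430, adjusted p 0.0662), and was called without G245S dish 3 (0.21, adjusted p 0.00234). Also called without 1 dish were AURKAIP1 (G245S dish 3, 0.12, adjusted p 0.0411) and MRPS34 (WT dish 3, 0.099, adjusted p 0.0293), so 1 dish moved the count to as many as 3. CPM values did not overlap between the mutants for 12 genes (36.4%), against 21.8% of all genes, with no share computed at like abundance. A p above the threshold does not show that the mutants act alike on the other genes, for which the differences lay between -0.11 and 0.15 with SE up to 0.0458.

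Taken as a sum, the 33 genes held 0.378% to 0.380% of the counts in the WT dishes, 0.384% to 0.387% in G245S and 0.389% to 0.392% in R273H. The groups did not overlap, and the means lay 1.82% and 3.15% above WT. With library sizes scaled by TMM, both mutants stayed above WT (0.375% to 0.380%) but overlapped each other, at 0.388% to 0.391% in G245S and 0.387% to 0.394% in R273H. The 50 genes of the large subunit had a median coding length of 585 nt, near the 597 nt of the small subunit genes. Their median GC content was higher (54.2% against 51.1%). They held 0.587% to 0.592% in WT, 0.585% to 0.592% in G245S and 0.579% to 0.585% in R273H. For this sum the WT and G245S dishes overlapped, and every R273H dish was below every WT dish.

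The ratio of small to large subunit counts needs no scaling for depth. It was 0.642, 0.643 and 0.644 in the WT dishes, 0.655, 0.654 and 0.657 in G245S and 0.672, 0.668 and 0.672 in R273H. The 3 groups did not overlap, and the mean was 1.91% above WT in G245S and 4.26% in R273H. With MRPS18A and MRPS30 counted in the large subunit and MRPS36 in neither, the mean was 1.43% and 3.66% above WT, and with the length and GC trend removed 1.79% and 3.83%. The ratio counts footprints on cytosolic ribosomes and says nothing of assembled subunits.

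**Figure D4:**
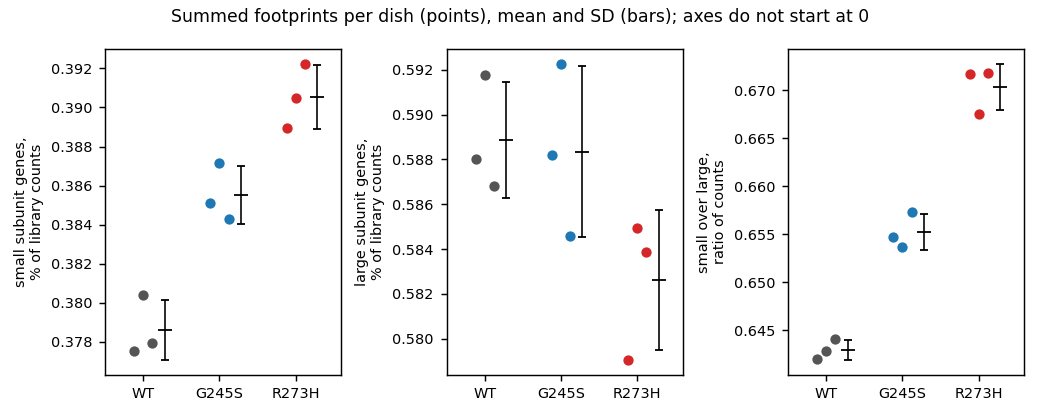
Summed footprint counts of the small subunit genes (left) and of the large subunit genes (middle), as % of a library, and the ratio of the sums (right), on y axes that do not start at 0, for the 3 dishes of WT, G245S and R273H (x axis), with the mean and SD as bars. The ratio runs from 0.642 to 0.644 in WT, 0.654 to 0.657 in G245S and 0.668 to 0.672 in R273H.

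In single genes, the large subunit had 15 of 50 calls (30%) in G245S, 10 higher and 5 lower, and 28 of 50 (56%) in R273H, 14 higher and 14 lower. Over all genes 24.7% and 28.8% were called, and 44.1% and 49.8% within the abundance range of the small subunit genes. The median log2 fold change of the large subunit genes was 0.028 and -0.025, and the second turned positive with the length and GC trend removed, as given above. The 32 small subunit genes of the cytosolic ribosome had 19 calls (59.4%) in G245S, 16 higher, and 14 (43.8%) in R273H, 11 higher, with medians of 0.071 and 0.043. With the trend removed these became 28 higher and 2 lower (median 0.157) and 24 higher and 2 lower (median 0.116). Between the mutants, 4 large subunit genes (8%) and 5 cytosolic genes (15.6%) were called, all higher in G245S. Of all genes 2.59% were called, and there too more were higher in G245S (1.86%) than lower (0.732%).

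Levels between genes were compared per length, as CPM per kilobase of coding region. In WT the density ran from 52.6 ± 2.28 CPM per kilobase (SD, n = 3 dishes) for MRPS9 to 816 ± 7.23 for MRPS21, a 15.5-fold range, with a median of 175. MRPS33 (418 ± 5.90) and MRPS16 (335 ± 7.70) followed MRPS21, and MRPS31 (56.9 ± 1.07) and MRPS30 (66.6 ± 2.09) stood next to MRPS9 at the low end. Of the 32 pairs of neighbours in this order, 17 overlapped in their dishes, so the order among these is not fixed by the data. Density fell with coding length (rank correlation -0.74 over 33 genes), but length is its divisor, so this fall is at least partly built in. Before the division, mean WT levels ran from 48.6 to 213 CPM. The 15.5-fold range among members compares with a largest change between groups of 1.24-fold.

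**Figure D5:**
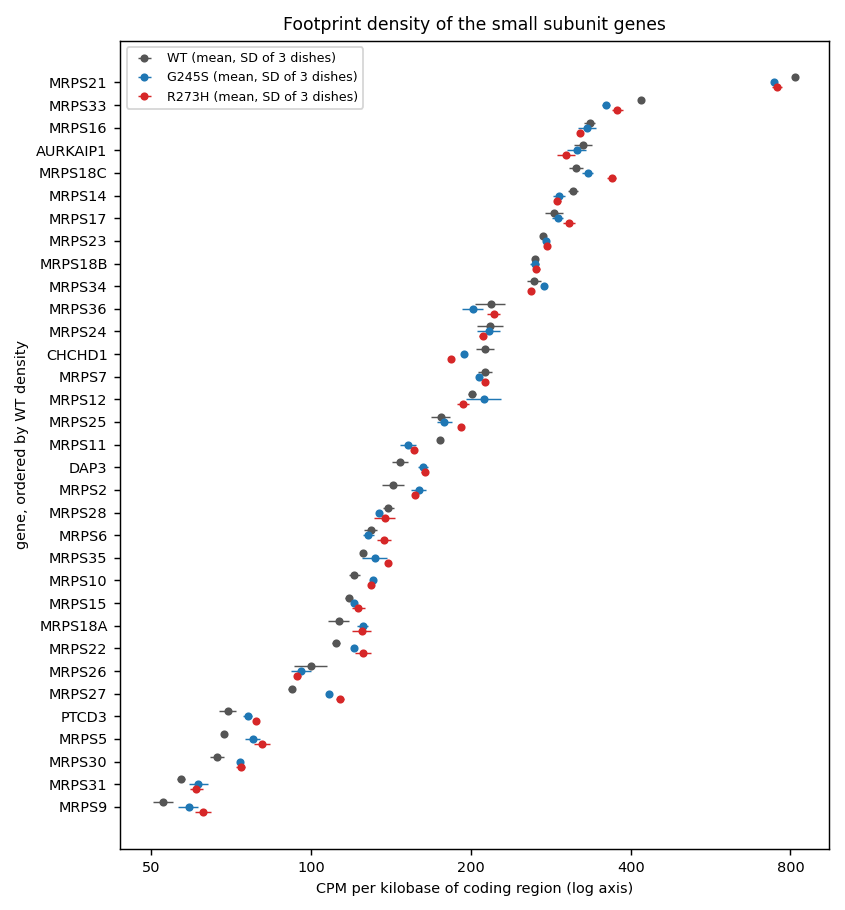
Footprint density in CPM per kilobase of coding region (x axis, log scale) of the 33 genes (y axis, ordered by the WT level), as mean and SD of 3 dishes for WT (grey), G245S (blue) and R273H (red). Densities run from 52.6 for MRPS9 to 816 for MRPS21 in WT, and the groups lie close together beside this range.

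A further 14 genes encode factors that mature the small subunit and its rRNA, start translation or, as LRPPRC and SLIRP do, handle mitochondrial mRNA. In G245S 5 were higher and 2 lower, and in R273H 5 were higher and 2 lower, against 24.7% and 28.8% of all genes called (median log2 fold change over the 14 genes 0.051 and 0.087). LRPPRC, which stabilises mitochondrial mRNAs, had the largest increase, with 444 ± 16.4 CPM (SD, n = 3 dishes) for WT, 549.5 ± 21.5 CPM for G245S and 578 ± 6.81 CPM for R273H. This was 0.33 in log2 for G245S (adjusted p 1.0e-08) and 0.38 for R273H (adjusted p 6.0e-10). Its partner SLIRP gave 0.069 (adjusted p 0.0319) and 0.019 (adjusted p 0.603), and the first call was kept in 5 of 9 fits with a dish left out. The GTPase NOA1 was higher by 0.21 (adjusted p 0.00418) and 0.23 (adjusted p 0.000887), and the assembly factor METTL17 by 0.17 (adjusted p 0.00322) and 0.19 (adjusted p 0.000844). The calls of LRPPRC, NOA1 and METTL17 were kept in all 9 such fits in each mutant.

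The rRNA methyltransferase TFB1M was called in G245S (0.18, adjusted p 0.0208) and gave 0.14 in R273H (adjusted p 0.0628), while NSUN4 was called in R273H (0.16, adjusted p 0.0483) and gave 0.17 in G245S (adjusted p 0.0562). YBEY, which acts in rRNA processing, was lower in G245S (-0.20, adjusted p 0.0123) and gave -0.069 in R273H (adjusted p 0.403). The initiation factor MTIF3 was lower in each mutant (-0.21, adjusted p 0.0346, and -0.22, adjusted p 0.0198), while MTIF2 was higher in R273H (0.12, adjusted p 0.0171) and gave 0.033 in G245S. MTFMT, which formylates the initiator tRNA, was lower in R273H (-0.27, adjusted p 0.0116) and gave -0.073 in G245S. Each of these calls was lost in 2 to 6 of the 9 fits with a dish left out. METTL15, TRMT2B, RBFA and ERAL1 were called in neither comparison.

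With the length and GC trend removed, SLIRP was called in each mutant, at 0.18 (adjusted p 3.5e-07) for G245S and 0.10 (adjusted p 0.00106) for R273H. NSUN4 was then also called in G245S (0.20, adjusted p 0.0116) and TFB1M in R273H (0.14, adjusted p 0.0478). Calls were lost for YBEY in G245S (-0.12, adjusted p 0.132), MTIF3 in G245S (-0.15, adjusted p 0.0824) and MTIF2 in R273H (0.073, adjusted p 0.141).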

How the data were processed

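Read processing was that of the authors: trimming (Trim Galore, cutadapt), UMI-tools where barcodes were present, removal of rRNA with SortMeRNA and STAR alignment to GRCh38. The authors deposited expected counts (estimated footprint counts per gene) without scaling. The counting tool, the annotation and how strand or multi-mapping was treated are not given in the sources used here. Between 55.9% and 58.2% of a library's nonzero values were not whole (tolerance 0.001), so some reads were divided between features by an estimate, and the kind of feature was not tested.

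Rounded expected counts entered edgeR 4.0.16 under R 4.3.3 (TMM, filterByExpr, robust glmQLFit, glmQLFTest, two-sided) with all 9 libraries in 1 fit and no term but group (6 residual degrees of freedom), with Benjamini-Hochberg adjustment over 19820 genes and a call at an adjusted p under 0.05. The fit was checked on simulated counts. TMM factors were 0.987 to 1.01, and the biological coefficient of variation was 2.58%. CPM used the total count. Coding lengths and positions came from GENCODE v44, which matched 62666 of 63241 genes, and trends in length and GC content were fitted with mgcv 1.9.3. Chi-square over degrees of freedom between dishes of a group was at least 1.48, and pairs with dish 3 reached 2.62, so no dish was a copy of another. The members, lists and motifs were chosen with earlier results of these data known. Described in full were the 4 genes with the largest called increase and the 4 with the largest called decrease in each mutant, and any called between mutants. Alternatives were other normalizations, DESeq2 1.42.0, no filter, fewer libraries, a block by dish number, removal of the trend, a minimum fold change, non-robust fits and, added after seeing the data, pseudogene counts added to their parent gene and other counts for the ratio of subunits. A fold change is thus read against a library's remaining genes. No matched RNA-seq or group without a p53 construct was analysed here, so mRNA level and translation of each mRNA cannot be told apart.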

Additional observations from a re-analysis of the deposited data

Results flagged for a closer look

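MRPS18C was set apart because its change against WT differed between the mutants by a test of the difference itself. The G245S minus R273H difference was -0.13 on the log2 scale (SE 0.0316, adjusted p 0.0210 in edgeR's quasi-likelihood test), and all 3 R273H dishes (154 to 159.7 CPM) were above all 3 G245S dishes (138 to 144 CPM). It was 1 of 33 genes called (3.03%), against 2.59% of all genes and 4.79% of those of like abundance, so the share was near the background. CPM values did not overlap between the mutants for 21.8% of all genes. The dependence of the MRPS18C call on single dishes and on the length and GC trend is given with the result.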

How the results depend on the processing

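With a minimum fold change of 1.2 (glmTreat) no member was called in any of the 3 comparisons (0 calls in each, and 0, 1 and 0 at an unadjusted p under 0.05). Few genes of any kind were called at this setting: 547 in G245S, 693 in R273H and 3 between the mutants, of 19820. DESeq2 called 13 members in G245S, 17 in R273H and 1 between the mutants. Over all genes it called 3049 in G245S and 3571 in R273H, of 18366 tested, and 358 of 5352 between the mutants. With 1 dish left out the calls were 13 to 18 in G245S, 15 to 21 in R273H and 0 to 3 between the mutants, and the medians were 0.035 to 0.066 (the highest without WT dish 3), 0.042 to 0.075 and -0.012 to 0.015. Without dish 3 of every group the G245S median was 0.064 and 3 members were called between the mutants. There, 2 were called with no filter and 2 with 6 libraries. Upper-quartile normalization gave an R273H median of 0.077.

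With the trend in length and GC content removed, the median was 0.118 in G245S (0.117 with a block by dish number) and 0.091 in R273H (0.091 with the block), and 0 members were called between the mutants (7 at an unadjusted p under 0.05 in edgeR). The sign changes given here are those of genes called with or without the trend. MRPS21 turned to 0.019 in G245S (0.018 with the block) and 0.0090 in R273H (0.0090). In R273H, MRPS14 turned to 0.0017 (0.0020) and MRPS34 to 0.076 (0.076). Their sign thus rests on how length and GC content are treated, and these were only removed together.

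Deviations of same-numbered dishes correlated at 0.0419 to 0.228, and those of other pairs at -0.183 to 0.0580. Each dish correlated best with a dish of its own number. What same-numbered dishes shared was not tested, and the main fit held no term for it. The replicate block gave 18 calls in G245S, 21 in R273H and 4 between the mutants, where MRPS34, MRPS12 and AURKAIP1 were added. Over all genes it gave 5779, 6547 and 1262 calls, against 4900, 5707 and 513 in the main fit.

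Without the gene with the highest count the summed share was 0.358% in WT, 0.365% in G245S and 0.370% in R273H, and with TMM-scaled sizes 0.389% in G245S. Over the union of exons the median density was 41.8 CPM per kilobase in WT. Adding pseudogene counts gave 18, 21 and 1 calls. With 3 dishes a group and 1 pool a group, changes of this size were read against the dish spread only.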
